A study of Homo sapiens with 4 samples.

Results

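The nuclear genes of respiratory chain complexes I to IV were compared between 786-O cells stably transduced with PRDM16 lentivirus (2 libraries) and 786-O cells stably transduced with a control vector (2 libraries), to find how PRDM16 overexpression affects these genes. The 786-O line is an established line derived from a human clear cell kidney cancer, and PRDM16 is a zinc finger protein that controls transcription and is known above all from brown fat, a tissue rich in mitochondria. RNA-seq was done on total RNA of cells grown under standard culture conditions. The labels do not say whether the replicates were separate cultures or whether the transduced cells were clones or pools, so the p-values rest on a spread among libraries that may be technical. A list of 58 genes was matched by name to the 56753 loci of the deposited table, and all 58 were found. Complex I held 35 of them, complex II 4, complex III 8 and complex IV 11, with NDUFA4 counted in complex IV, of which it is now known to be a subunit. Of the 58, 41 had a locus of their own that passed the filter of a mean of at least 1 FPKM (a level scaled for transcript length and sequenced fragments) over the 4 libraries. Another 15 passed in a locus that also names other genes and are marked as such, since their value may hold reads of those genes too. NDUFA6 was listed at 0 in all 4 libraries, and NDUFA3 was listed at 0 in 3 of them and at 0.120 FPKM in PRDM16 replicate 2. All 13 mitochondrially encoded genes looked up were also listed at 0 in the 4 libraries, 12 of them in loci with several names. Whether an exact 0 in this table means no expression or a failed estimate was not tested. A 0 is therefore not read here as absence of the transcript, in the mitochondrially encoded genes above all.

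The respiratory chain passes electrons from NADH and succinate to oxygen and pumps protons across the inner mitochondrial membrane, and ATP synthase uses the resulting gradient. Complex I takes electrons from NADH and complex II from succinate. Both reduce ubiquinone, complex III passes the electrons on to cytochrome c, and complex IV hands them to oxygen. Complexes I, III and IV combine subunits encoded in mitochondrial DNA with nuclear ones, whereas all subunits of complex II are nuclear. Clear cell renal carcinomas are known for low mitochondrial respiration and high glycolysis, and in brown fat PRDM16 acts with PPARGC1A, a coactivator of mitochondrial genes.

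The transduced gene separated the groups, and replicate 2 of each group stood apart in the respiratory chain genes. PRDM16 was at 1226 and 1146 FPKM in the PRDM16 libraries, against 0.0157 and 0.234 FPKM in the control vector libraries. Of 9 markers of renal tubule and renal carcinoma, 8 had a mean of at least 1 FPKM, and the proximal tubule receptor gene LRP2 was at 0 in 3 libraries and at 0.00428 FPKM in PRDM16 replicate 2. The summed level of these markers was 3943 to 4053 FPKM with PRDM16 and 4041 to 4089 FPKM with the control vector, most of it VIM. Members of the list differed in direction, none past the test. CDH16 was at 0.997 and 0.926 FPKM with PRDM16 and 1.58 and 1.86 FPKM with the control vector. PAX8 was at 190.3 and 169 FPKM with PRDM16 and 202 and 208 FPKM with the control vector, and KRT18, in a locus with another name, was at 101 and 103 FPKM with PRDM16 and 81.6 and 74.5 FPKM with the control vector. Leukocyte, endothelial and fibroblast markers had 5 of 14 members at a mean of at least 1 FPKM. Their highest value was 25.7 FPKM, for LCP1, which many carcinoma lines express, and CD3E and DCN were at 0 in all 4 libraries. The summed leukocyte list, most of it LCP1, was 26.5 to 28.998 FPKM with PRDM16 and 15.7 to 16.5 FPKM with the control vector, and its part in the results below was not tested. Between 23138 and 24490 loci had a value above 0 per library. Relative to control vector replicate 1, the steps between low values gave a depth of 1.26 for PRDM16 replicate 1, 1.17 for PRDM16 replicate 2 and 1.39 for control vector replicate 2.

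No respiratory chain gene passed the test between PRDM16 and control vector cells, and the changes were small. Across the 56 tested loci, 0 had an adjusted p under 0.05 by limma's moderated test on log2(FPKM + 1) with Benjamini-Hochberg adjustment, where 0.0226% of all 13246 loci tested were called, and the smallest adjusted p among them was 0.689. At an unadjusted p under 0.05 there was 1 of the 41 genes with a locus of their own, where 6.12% of all loci tested met that rule. That gene was UQCRH, which had the higher mean with PRDM16, and 2.42% of all loci met the rule in that direction. No gene met it with the lower mean, where 3.7% of all loci did. The log2 changes of the 41 genes lay between -0.06 and 0.27, with a median of 0.08, beside a median of 0.00399 over all loci tested. The 95% interval of the change lay inside 1.5-fold in both directions for 56 of the 56 tested loci, from a lowest bound of -0.44 to a highest bound of 0.54, both for NDUFB1. These intervals are not adjusted for the number of genes.

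**Figure D1:**
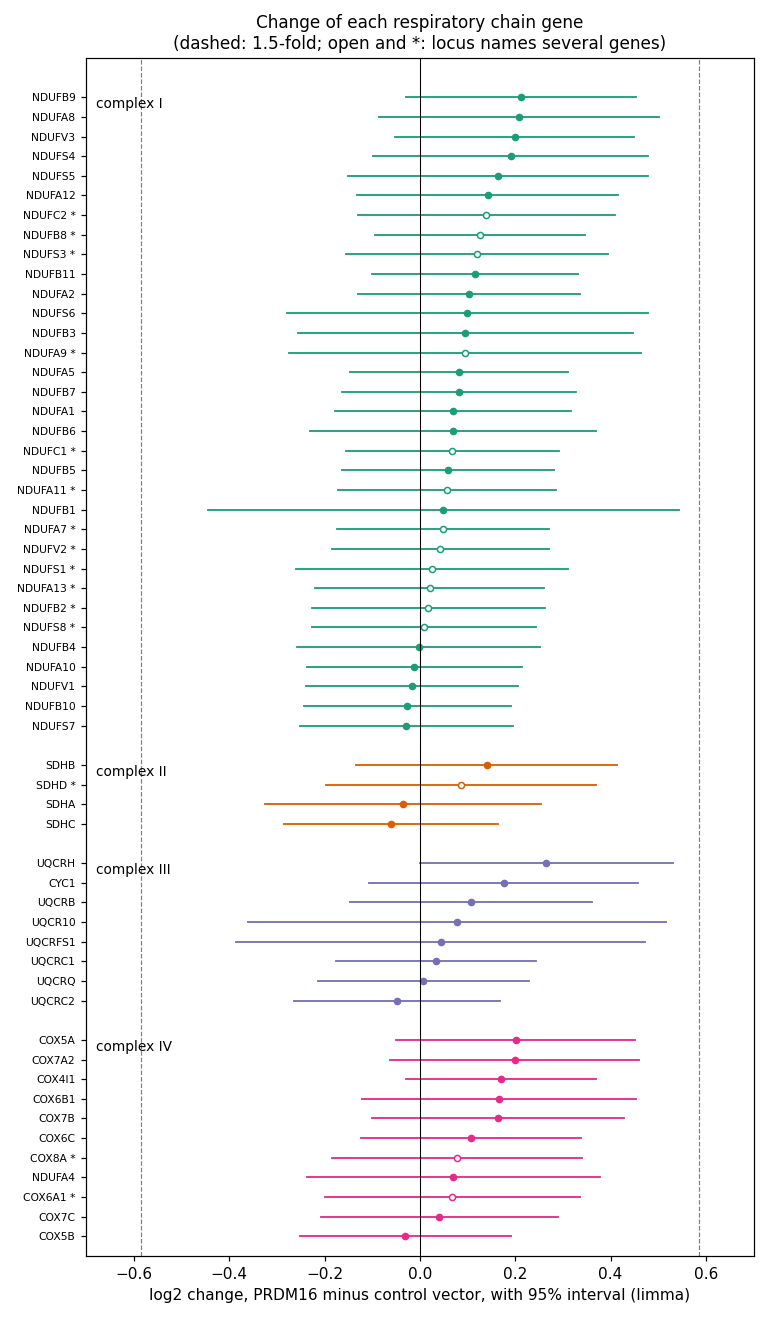
Log2 change of each tested respiratory chain gene, PRDM16 minus control vector (x axis), with its 95% interval from limma, by complex (y axis). Filled points are loci naming 1 gene, open points loci naming several, and dashed lines mark a 1.5-fold difference. All 56 intervals lie between -0.44 and 0.54.

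Most of the small differences had the higher mean in PRDM16 cells. Of the 41 genes, 32 had a log2 change above 0 (78.0%), where 50.7% of all loci tested did. For 18 of the 41 (43.9%) the PRDM16 libraries were both higher than the highest control vector library, where 21.1% of all loci tested were. For 2 of the 41 (4.88%), SDHC and UQCRC2, both PRDM16 libraries lay below both control vector libraries, where 20.3% of all loci tested did. In the loci that name several genes, 15 of 15 had a log2 change above 0, with a median of 0.07. Control vector replicate 2 was the lowest library for 12 of these 15. Without it, 9 of 15 had a change above 0, with a median of 0.02. Without PRDM16 replicate 2, 14 of 15 did, with a median of 0.05.

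Control vector replicate 2 and PRDM16 replicate 2 both stood out in these genes, in opposite directions. It was the lowest of the 4 libraries for 28 of the 41 genes (68.3%), where it was the lowest for 38.7% of all loci tested. PRDM16 replicate 2 was the highest for 26 of them (63.4%), where it was the highest for 27.2% of all loci tested. Control vector replicate 1 was the highest for 10 of them, where it was for 22.7% of all loci tested, and control vector replicate 2 for 2, where it was for 33.9%. Relative to each gene's mean of 4 libraries, the median ratio over the 41 genes was 1.01 in PRDM16 replicate 1 and 1.07 in PRDM16 replicate 2, against 1.004 in control vector replicate 1 and 0.938 in control vector replicate 2. PRDM16 replicate 1 and control vector replicate 1 were therefore nearly level. Over all loci tested the median ratio was 0.995 in PRDM16 replicate 2 and 0.987 in control vector replicate 2. Without control vector replicate 2 the median log2 change of the 41 genes was 0.03, and 26 of them had a change above 0, where 48.8% of all loci tested did. When control vector replicate 1 was left out, the median was 0.15 and 35 had a change above 0, where 51.6% of all loci tested did. Leaving out PRDM16 replicate 1 gave a median of 0.14 and 34 genes above 0, where 49.9% of all loci tested were. Leaving out PRDM16 replicate 2 gave 0.04 and 30 genes, where 52.4% of all loci tested were. The median absolute log2 difference of the 41 genes was 0.07 between the PRDM16 libraries and 0.12 between the control vector libraries, and the median absolute change between the groups was 0.08.

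**Figure D2:**
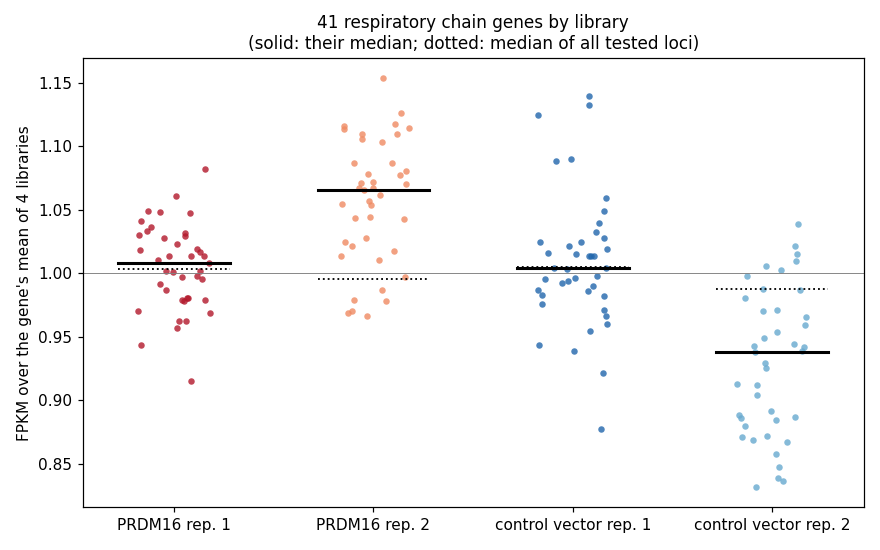
FPKM of each of the 41 respiratory chain genes with a locus of their own, divided by that gene's mean over the 4 libraries (y axis), by library (x axis). Solid bars are medians of the 41 genes (1.01, 1.07, 1.004 and 0.938 from left to right) and dotted bars medians of all tested loci. Control vector replicate 2 lies lowest and PRDM16 replicate 2 highest.

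Transcript length and level moved with the direction of change over the whole table. Among protein-coding loci with the longest annotated transcript under 1000 nt, 60.4% of 182 had a log2 change above 0, with a median of 0.06, and the 15 respiratory chain genes of that length had a median of 0.10. At 4000 nt or longer, 42.7% of 4226 loci had a change above 0, with a median of -0.03. The 6 respiratory chain genes of that annotated length had a median of 0.07. The transcript expressed may be shorter than the longest annotated one, which for SDHC has 13566 nt, beside a coding sequence of 510 nt. Those 6 genes therefore do not show how long transcripts changed. Among 1770 protein-coding loci at a level of at least 50 FPKM, which 35 of the 41 genes also reached, 61.5% had a change above 0, with a median of 0.05. In those highly expressed loci the groups did not overlap for 27.3% with PRDM16 higher and for 15.4% with PRDM16 lower. The part of length and level in the result was not tested.

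The core subunits of complex I, which carry its flavin and iron-sulfur clusters, differed little between the groups. NDUFV1, which binds NADH and the flavin, had 97.1 and 92.5 FPKM in the PRDM16 libraries, against 96.6 and 95.1 FPKM in the control vector libraries. Its groups overlapped, with a log2 change of -0.02 (SE 0.08, limma adjusted p = 0.952) and a 95% interval of -0.24 to 0.21. NDUFS7, the iron-sulfur subunit next to the quinone site, had 78.6 and 74.9 FPKM in the PRDM16 libraries, against 77.9 and 78.7 FPKM in the control vector libraries. Those groups overlapped as well, with a log2 change of -0.03 (SE 0.08, limma adjusted p = 0.916). The other core subunits on the list sat in loci that also name other genes. NDUFS1, which carries several iron-sulfur clusters, was at 51.02 and 46.98 FPKM with PRDM16 and 51.1 and 45.2 FPKM with the control vector, in a locus that also names GCSHP3. NDUFS3, a core subunit without a cluster, was at 102 and 104 FPKM with PRDM16 and 102 and 88.6 FPKM with the control vector, in a locus with PTPMT1, and its groups did not overlap because control vector replicate 1 lay just below the lower PRDM16 library. The iron-sulfur subunit NDUFS8 was at 138 and 133 FPKM with PRDM16 and 129 and 140.2 FPKM with the control vector, in a locus with a pair of microRNA genes. NDUFV2, another iron-sulfur subunit, was at 37.9 and 38.3 FPKM with PRDM16 and 36.2 and 37.7 FPKM with the control vector, in a locus with ANKRD12. The log2 changes of these shared loci were 0.03 for NDUFS1, 0.12 for NDUFS3, 0.01 for NDUFS8 and 0.04 for NDUFV2, and their limma adjusted p lay between 0.711 and 0.974. NDUFS8 and NDUFS1 kept no direction, since without PRDM16 replicate 1 their changes were -0.01 and -0.03.

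Accessory subunits of complex I, which surround the core and are needed for its assembly and stability, had the largest changes of that complex. NDUFB9, a subunit of the distal membrane arm, had 236 and 251 FPKM in the PRDM16 libraries, against 219 and 201 FPKM in the control vector libraries. The lower PRDM16 library exceeded the higher control vector library, and the log2 change was 0.21 (SE 0.09, limma adjusted p = 0.689). NDUFA8, a subunit of the membrane arm, had 72.6 and 80.2 FPKM in the PRDM16 libraries, against 70.2 and 61.9 FPKM in the control vector libraries, again without overlap, and a log2 change of 0.21 (SE 0.11, limma adjusted p = 0.689). NDUFV3, which sits beside the NADH-binding subunits, had 12.7 and 13.7 FPKM in the PRDM16 libraries, against 11.3 and 11.4 FPKM in the control vector libraries. It was the lowest of the tested complex I loci by level, its groups did not overlap, and the log2 difference was 0.20 (SE 0.09, limma adjusted p = 0.689). NDUFS4, a subunit mutated in Leigh syndrome, had 42.7 and 46.96 FPKM in the PRDM16 libraries, against 36.9 and 41.5 FPKM in the control vector libraries, and here control vector replicate 1 was the lowest library. The log2 change of NDUFS4 was 0.19 (SE 0.11, limma adjusted p = 0.689). NDUFS5, the highest of the complex I genes with a locus of their own, had 302 and 321 FPKM in the PRDM16 libraries, against 305 and 253 FPKM in the control vector libraries, so that only control vector replicate 2 was low. NDUFB11, whose gene lies on the X chromosome, had 68.4 ± 0.365 FPKM with PRDM16 and 63.03 ± 0.0320 FPKM with the control vector (SD, n = 2 each), groups that were close within themselves and did not overlap, and a log2 change of 0.12 (SE 0.08, limma adjusted p = 0.690).

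By position in complex I, the accessory subunits mostly had higher means with PRDM16 in each region, none of them past the test. The counts without overlap stand beside 21.1% of all loci tested that lay higher without overlap. Of 6 tested accessory genes of the matrix arm and its base, 6 had a higher mean with PRDM16 and 5 did not overlap, with a median log2 change of 0.12. Of 4 tested accessory genes of the membrane arm near the base, 3 had a higher mean and 1 did not overlap, with a median of 0.12. Of 9 tested genes of the distal membrane arm, the NDUFB subunits, 7 had a higher mean and 3 did not overlap, with a median of 0.07. That direction did not hold without control vector replicate 2, when the median was -0.02 and 4 of 9 had a higher mean, and the median was 0.00644 without PRDM16 replicate 2. In that arm control vector replicate 2 was the lowest library for 8 of 9 genes. Over the whole complex, 16 of 21 genes had a higher mean, 9 lay higher without overlap and 0 lower, and the median log2 change was 0.08. Without control vector replicate 2 it was 0.03, and 12 of 21 had a higher mean. Without PRDM16 replicate 2 it was 0.04, and 17 of 21 did. Their summed level was 2317 ± 74.5 FPKM with PRDM16 and 2178 ± 154 FPKM with the control vector (SD, n = 2 each).

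Complex II, which also serves the citric acid cycle as succinate dehydrogenase, showed no common direction. SDHA, the flavoprotein that oxidizes succinate, had 75.2 and 79.04 FPKM in the PRDM16 libraries, against 85.1 and 73.4 FPKM in the control vector libraries, and its overlapping groups gave a log2 change of -0.04 (SE 0.11, limma adjusted p = 0.919). SDHB, the iron-sulfur subunit, had 89.2 and 92.4 FPKM in the PRDM16 libraries, against 87.9 and 76.9 FPKM in the control vector libraries. Its groups did not overlap, and the log2 change was 0.14 (SE 0.10, limma adjusted p = 0.690). SDHC, a membrane anchor, was at 27.4 ± 0.00396 FPKM with PRDM16 and 28.6 ± 0.00311 FPKM with the control vector (SD, n = 2 each). The replicates of SDHC were closer to each other than those of the other tested respiratory chain genes, both PRDM16 libraries were lower, and the log2 change of -0.06 (SE 0.09, limma adjusted p = 0.807) still did not pass. SDHD, the other anchor, was at 26.1 and 28.2 FPKM with PRDM16 and 27.1 and 24.05 FPKM with the control vector in a locus with BCO2 and TEX12, with a log2 change of 0.09. The median log2 change of the 3 genes with a locus of their own was -0.04, and with SDHD included it was 0.03. Without control vector replicate 1 the change of SDHA was 0.07.

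In complex III the hinge protein gene UQCRH differed most. UQCRH had 235 and 263 FPKM in the PRDM16 libraries, against 215 and 199 FPKM in the control vector libraries. The groups did not overlap, the log2 change was 0.27 (SE 0.10, limma adjusted p = 0.689), and the 95% interval, from 0.000399 to 0.53, was the one interval of the 56 that did not reach 0. CYC1, the cytochrome c1 gene, had 244 and 249 FPKM in the PRDM16 libraries, against 235 and 201 FPKM in the control vector libraries. Its groups did not overlap and the log2 difference was 0.18 (SE 0.11, limma adjusted p = 0.689), with control vector replicate 2 again the lowest. UQCRB, a ubiquinone-binding accessory subunit, was at 165 and 174 FPKM with PRDM16 and 166 and 149 FPKM with the control vector, with overlapping groups and a log2 change of 0.11. The core protein genes UQCRC1 and UQCRC2 were nearly level. UQCRC1 was at 213 ± 3.01 FPKM with PRDM16 and 208 ± 5.14 FPKM with the control vector, and UQCRC2 at 95.97 ± 1.94 FPKM with PRDM16 and 99.3 ± 1.04 FPKM with the control vector (SD, n = 2 each). UQCRC2 was the lower one with PRDM16, without overlap, at a log2 change of -0.05 (SE 0.08, limma adjusted p = 0.841). UQCRFS1, the Rieske iron-sulfur protein, was listed at 8.13 and 8.65 FPKM with PRDM16 and 9.45 and 6.94 FPKM with the control vector, far below the other members of its complex, which had means from 97.6 to 232 FPKM. The median change of the 8 genes was 0.06. Leaving out control vector replicate 2 gave 0.000577, and leaving out control vector replicate 1 gave 0.21.

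Complex IV, cytochrome c oxidase, had 6 of 9 genes with a locus of their own higher without overlap, where 21.1% of all loci tested and 27.3% of the protein-coding loci of at least 50 FPKM were. COX4I1, the ubiquitous isoform of subunit 4, had 373 and 382 FPKM in the PRDM16 libraries, against 335 and 336 FPKM in the control vector libraries. The groups did not overlap and the replicates were close, with a log2 change of 0.17 (SE 0.08, limma adjusted p = 0.689). COX5A had 141 and 143 FPKM in the PRDM16 libraries, against 131 and 117 FPKM in the control vector libraries, again without overlap, and a log2 change of 0.20 (SE 0.09, limma adjusted p = 0.689). COX7A2, the ubiquitous isoform of subunit 7A, had 227 and 221 FPKM in the PRDM16 libraries, against 208 and 183 FPKM in the control vector libraries. COX7B, encoded on the X chromosome, had 66.8 and 70.7 FPKM in the PRDM16 libraries, against 64.7 and 57.98 FPKM in the control vector libraries. Neither overlapped, and their log2 changes were 0.20 for COX7A2 and 0.16 for COX7B, each with a limma adjusted p of 0.689. COX6B1 and COX6C also lay higher without overlap, at log2 changes of 0.17 for COX6B1 and 0.11 for COX6C. The zinc-binding subunit COX5B went against the others, at 123 and 123 FPKM with PRDM16 and 122 and 129 FPKM with the control vector, with overlapping groups and a log2 change of -0.03 (SE 0.08, limma adjusted p = 0.908). NDUFA4 was the lowest of complex IV, at 20.6 and 24.2 FPKM with PRDM16 and 21.9 and 20.6 FPKM with the control vector. Over the 9 genes with a locus of their own, 8 had a higher mean, and the median change was 0.16. Without PRDM16 replicate 2 it was 0.09, and 6 of 9 had a higher mean. Without control vector replicate 2 it was also 0.09, and 9 of 9 had a higher mean. Their summed level was 1499 ± 45.3 FPKM with PRDM16 and 1365 ± 48.5 FPKM with the control vector (SD, n = 2 each).

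**Figure D3:**
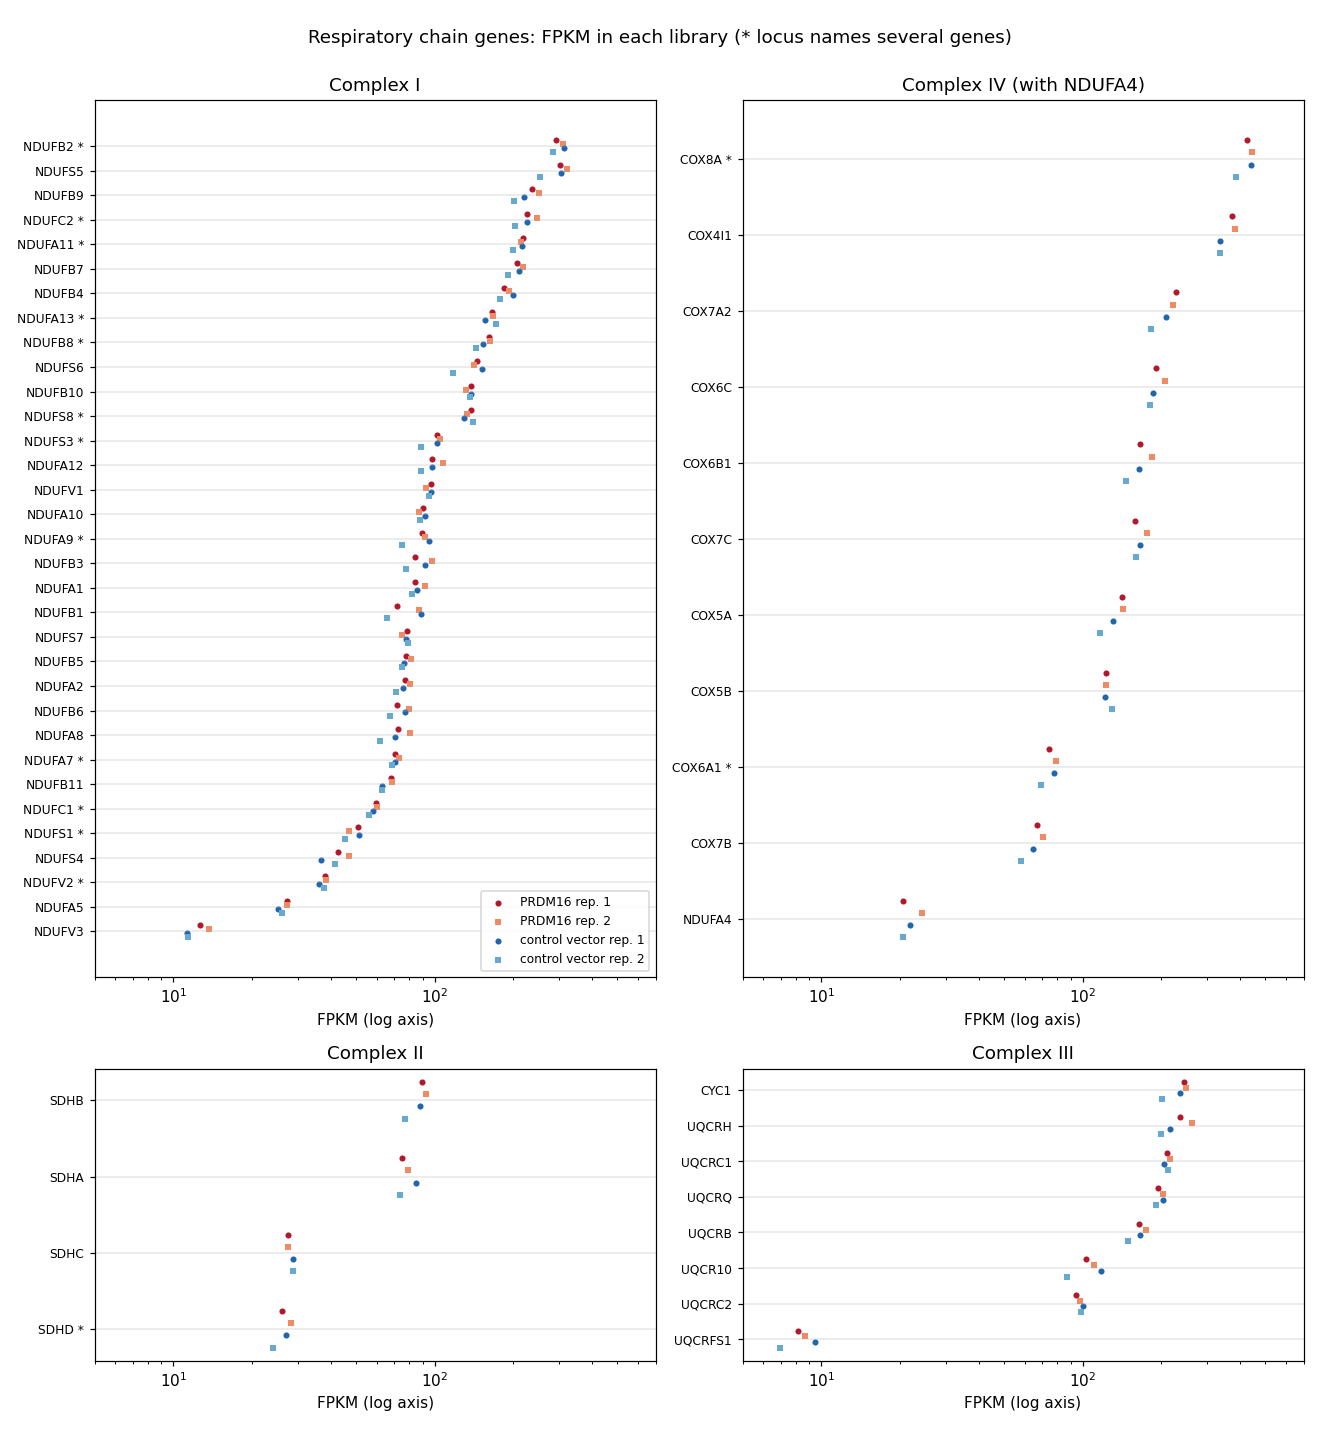
FPKM of each tested respiratory chain gene (log x axis) in each library, by complex and ordered by mean level (y axis), with PRDM16 libraries in red and control vector libraries in blue. Levels run from 8.30 FPKM for UQCRFS1 to 425 FPKM for COX8A on the mean of 4 libraries, and the 4 points of a gene lie close together.

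The levels, which FPKM scales for transcript length, ranged widely within a complex, although the subunits of a complex are thought to be present in equal numbers. In complex I the means of the tested loci ran from 12.2 FPKM for NDUFV3 to 299 FPKM for NDUFB2, a locus that also names ADCK2. In complex IV they ran from 21.9 FPKM for NDUFA4 to 425 FPKM for COX8A, a locus that also names OTUB1. COX4I1 was the highest with a locus of its own, at 357 FPKM.

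Pseudogenes, such as processed ones, which are copies of the mRNA inserted elsewhere in the genome, can take reads of these genes. The table held 95 names that mark a pseudogene of a listed gene, from 27 of the genes, of which 61 were listed at 0 in all libraries and 13 had a mean of at least 1 FPKM. COX6A1P2 was higher than its gene, at 133 and 141 FPKM with PRDM16 and 139 and 136 FPKM with the control vector, while COX6A1, a subunit of complex IV in a locus with other names, was at 74.4 and 79.1 FPKM with PRDM16 and 77.4 and 69.1 FPKM with the control vector. The pseudogene matched the coding sequence of COX6A1 at 326 of 330 bases. UQCRFS1P1, which matched UQCRFS1 at 804 of 813 aligned bases, was at 8.13 and 7.89 FPKM with PRDM16 and 8.49 and 6.47 FPKM with the control vector, nearly the level of UQCRFS1 itself. NDUFA5P11 was at a mean of 29.6 FPKM and its gene NDUFA5, an accessory subunit of complex I, at a mean of 26.4 FPKM, with 335 of 343 aligned bases identical. COX7CP1, UQCRBP1 and NDUFV2P1 reached 37.6%, 30.1% and 66.1% of the level of COX7C, UQCRB and NDUFV2. How the authors' counting divided reads between a gene and its copy is not given in the sources used here, so the levels of these genes are uncertain. The coding stretches below show how few bases can tell the copies apart, with the differing bases in capitals. They are from GENCODE 29 transcripts on GRCh38, as bases 1 to 90 of the COX6A1 coding sequence and 6 to 95 of that of UQCRFS1.
COX6A1, gene at chr12:120438090-120440742, plus strand: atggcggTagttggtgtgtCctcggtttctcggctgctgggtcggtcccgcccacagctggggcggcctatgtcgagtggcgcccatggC
COX6A1P2, chr6:37044860-37045189, plus strand: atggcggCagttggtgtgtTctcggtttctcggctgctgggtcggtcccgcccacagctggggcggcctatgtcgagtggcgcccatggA
UQCRFS1, gene at chr19:29205321-29213541, minus strand: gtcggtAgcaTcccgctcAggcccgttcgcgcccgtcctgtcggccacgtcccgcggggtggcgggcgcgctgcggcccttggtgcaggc
UQCRFS1P1, chr22:39875289-39876108, plus strand: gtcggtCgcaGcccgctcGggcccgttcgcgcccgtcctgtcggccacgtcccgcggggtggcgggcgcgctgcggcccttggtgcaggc
Each pair differed at 3 of the 90 bases shown. The 11 pseudogene loci with a single name and a mean of at least 1 FPKM were also added to their genes, an alternative chosen after seeing the data. Then 32 of the 41 genes had a change above 0, with a median of 0.08. Most of the 41 values could not change, because few of these genes had such a pseudogene.

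**Figure D4:**
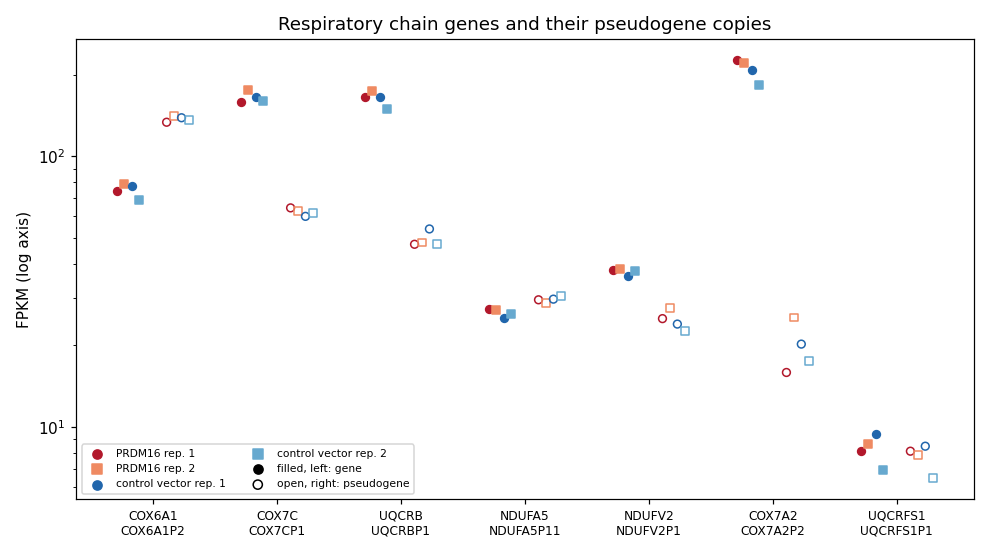
FPKM (log y axis) of 7 respiratory chain genes (filled, left) and of their pseudogene copies (open, right) in each library. COX6A1P2 lies above COX6A1 in all 4 libraries, while the copies of COX7C, UQCRB and COX7A2 lie below their genes.

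The promoters of the listed genes shared a short motif around their start sites more often than promoters at large. RefSeq promoter sequences on GRCh38.p14, 250 bases before to 50 bases after the start, were found for 49 of the 58 genes. The motif AANATGGCG, which the factor YY1 is known to bind, was searched on both strands and occurred in 15 of the 49 promoters (30.6%). It occurred in 3.37% of all 27305 promoters of the same length and in 7.38% of the 7450 whose gene was tested here. The motif of NRF1, a factor known for binding promoters of respiratory chain genes, was searched as GCGCA, any base, then GCGC, on both strands. It occurred in 11 of 49 (22.4%), in 6.28% of all promoters and in 12.3% of those tested. The motif CCGGAAGT of ETS factors such as GABP occurred in 7 of 49 (14.3%), 4.44% and 8.83% of the same sets, both strands searched. The letters TATAAA of the TATA box, counted anywhere on either strand, occurred in 5 of 49 (10.2%), 11.95% and 4.91% of these sets. In those 5 promoters the matches began at bases -220 to -86, counted from the start. Whether any works as a TATA box was not tested. No matches of different motifs overlapped in these 49 promoters. In 11 of the 14 genes whose match could be shown with its flanks, the ATG inside the YY1 motif was the annotated start of translation. The windows below, 30 bases each, show the motif in capitals in a gene of complex I that lay higher with PRDM16 without overlap, in a level one, and in genes of complexes II, III and IV.
NDUFS4, chr5:53560650-53560679, plus strand: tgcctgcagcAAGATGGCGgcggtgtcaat
NDUFS7, chr19:1383914-1383943, plus strand: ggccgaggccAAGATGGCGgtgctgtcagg
SDHB, chr1:17054003-17054032, minus strand: gtcaggagccAAGATGGCGgcggtggtcgc
UQCRC1, chr3:48609604-48609633, minus strand: ctgcagctggAAGATGGCGgcgtccgtggt
COX6A1, chr12:120438114-120438143, plus strand: gtccagatcaAAAATGGCGgtagttggtgt
The changes of genes with and without a motif were set side by side, with no test. The median log2 change was 0.08 in 7 tested genes with the YY1 motif and 0.08 in 26 without it, and it was 0.04 in 7 with the NRF1 motif and 0.09 in 26 without it. For the ETS motif it was 0.00764 in 3 genes with it and 0.08 in 30 without it. For the letters TATAAA it was 0.10 in 3 genes with them and 0.08 in 30 without them. SDHA and UQCRC1 show the NRF1 motif in the 100 bases before the start, in capitals.
SDHA, chr5:218220-218319, plus strand: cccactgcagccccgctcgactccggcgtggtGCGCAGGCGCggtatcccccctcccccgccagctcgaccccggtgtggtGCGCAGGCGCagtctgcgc
UQCRC1, chr3:48609647-48609746, minus strand: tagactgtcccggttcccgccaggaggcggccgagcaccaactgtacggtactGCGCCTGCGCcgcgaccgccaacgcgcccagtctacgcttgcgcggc
A match is only a description of the letters, and the binding of these factors was not measured.

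No other gene of the pathway passed over all loci, and log2 changes with a locus of their own ran from -0.27 to 0.39, wider than those of the subunits. Some 95% intervals went past 1.5-fold, and they lay inside it for 10 of 12 ATP synthase subunits and 5 of 9 regulators. The counts without overlap in these lists stand beside 21.1% of all loci tested that lay higher and 20.3% that lay lower, and those at an unadjusted p under 0.05 beside 6.12%. Of 12 tested ATP synthase subunits, 11 had a higher mean with PRDM16, 3 lay higher and 1 lower without overlap, and the median log2 change was 0.12. Without control vector replicate 2 the median was 0.02, and 7 of 12 had a higher mean. Without PRDM16 replicate 2 it was 0.09, and 10 of 12 did. When control vector replicate 1 was left out it was 0.25. ATP5D, the delta subunit of its catalytic part, was at 106 and 111 FPKM with PRDM16 and 100.1 and 89.6 FPKM with the control vector, a log2 change of 0.19 (SE 0.10, limma adjusted p = 0.689). ATP5L, a membrane subunit, was at 302 and 316 FPKM with PRDM16 and 297 and 251 FPKM with the control vector, with a log2 change of 0.18. NDUFAB1, the mitochondrial acyl carrier protein and also a subunit of complex I, was at 92.1 and 97.2 FPKM with PRDM16 and 95.7 and 79.9 FPKM with the control vector, with overlapping groups and a log2 change of 0.11.

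Assembly factors of complex I, which build the complex without staying in it, included NDUFAF4 and NDUFAF6, at an unadjusted p under 0.05. Of 12 tested, 9 had a higher mean, 7 lay higher and 1 lower without overlap, and 2 had an unadjusted p under 0.05, with a median log2 change of 0.08, or 0.17 without control vector replicate 2. NDUFAF4 had 30.1 and 31.5 FPKM in the PRDM16 libraries, against 25.7 and 21.04 FPKM in the control vector libraries. Its groups did not overlap and the log2 difference was 0.39 (SE 0.13, limma adjusted p = 0.689). NDUFAF6 had 22.96 and 21.7 FPKM in the PRDM16 libraries, against 18.7 and 17.1 FPKM in the control vector libraries, also without overlap, and a log2 change of 0.30 (SE 0.10, limma adjusted p = 0.689). Among 14 tested assembly factors of complex IV, 9 had a higher mean, 5 lay higher and 3 lower without overlap, and the median log2 change was 0.06. This direction did not hold without control vector replicate 2, when the median was -0.00675 and 7 of 14 had a higher mean. Without PRDM16 replicate 2 the median was 0.03, and 9 of 14 did. COA5 was at 11.5 and 11.4 FPKM with PRDM16 and 12.3 and 13.5 FPKM with the control vector, a log2 change of -0.16, and COA7 at 22.4 and 19.9 FPKM with PRDM16 and 19.2 and 18.2 FPKM with the control vector, a log2 change of 0.17. Of 5 tested for complex III, 3 had a higher mean. BCS1L, which inserts the Rieske protein, was at 29.8 and 29.9 FPKM with PRDM16 and 26.1 and 24.1 FPKM with the control vector and did not overlap, at a log2 change of 0.24 (SE 0.09, limma adjusted p = 0.689). UQCC3, another of them, was at 11.2 and 12.4 FPKM with PRDM16 and 11.2 and 8.13 FPKM with the control vector and overlapped. For complex II, SDHAF1, a factor for the iron-sulfur clusters of SDHB, was at 6.66 and 7.23 FPKM with PRDM16 and 5.82 and 5.21 FPKM with the control vector, a log2 change of 0.29, and SDHAF4, a factor for SDHA, was at 7.70 and 6.55 FPKM with PRDM16 and 6.99 and 10.4 FPKM with the control vector, a log2 change of -0.23.

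Besides LONP1, the list of regulators holds genes that act on mitochondrial DNA and nuclear factors that act on nuclear genes for mitochondrial proteins. Of 9 tested on this list, 8 had a higher mean with PRDM16, without passing. LONP1 had the lower mean, at 87.2 and 71.8 FPKM with PRDM16 and 78.2 and 117 FPKM with the control vector. Its groups overlapped, with a log2 change of -0.27 (SE 0.22, limma adjusted p = 0.703). POLRMT, the mitochondrial RNA polymerase, had 18.8 and 18.6 FPKM in the PRDM16 libraries, against 15.6 and 15.6 FPKM in the control vector libraries. The replicates were close and the groups did not overlap, at a log2 change of 0.25 (SE 0.09, limma adjusted p = 0.689). TFB2M, which opens mitochondrial promoters with the polymerase, had 17.9 and 19.7 FPKM in the PRDM16 libraries, against 15.3 and 14.3 FPKM in the control vector libraries, also without overlap, and a log2 change of 0.32 (SE 0.10, limma adjusted p = 0.689). Over the 9 regulators the median log2 change was 0.17, 5 lay higher without overlap, 2 had an unadjusted p under 0.05, and control vector replicate 2 was the lowest library for 8. The coactivator genes PPARGC1A and PPARGC1B were below the filter, between 0.156 and 0.778 FPKM in the 4 libraries. In the list of cytochrome c and ubiquinone synthesis, 5 of 9 had a higher mean, 1 lay higher and 3 lower without overlap. Its median log2 change was 0.02, and -0.03 without control vector replicate 2. PDSS1, which makes the ubiquinone side chain, was at 4.74 and 5.01 FPKM with PRDM16 and 4.49 and 2.77 FPKM with the control vector, and COQ4, which organizes ubiquinone synthesis, at 21.5 and 22.6 FPKM with PRDM16 and 24.1 and 25.1 FPKM with the control vector. Their log2 changes were 0.37 for PDSS1 and -0.15 for COQ4.

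Paralogs of the subunits that mark certain tissues or hypoxia were near 0. NDUFA4L2, a HIF target that many clear cell renal carcinomas express strongly, was at 0.346 and 0.167 FPKM with PRDM16 and 0.195 and 1.31 FPKM with the control vector, so that it was above 1 FPKM in control vector replicate 2 alone. COX4I2, COX7B2 and COX8C were listed at 0 in all 4 libraries, and COX6A2, COX6B2 and COX7A1 were at most 0.291 FPKM in any library. COX7A2L, which joins complexes III and IV and is expressed widely, was at 81.8 and 83.1 FPKM with PRDM16 and 82.9 and 94.3 FPKM with the control vector, a log2 change of -0.10 (SE 0.10, limma adjusted p = 0.741).

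**Figure D5:**
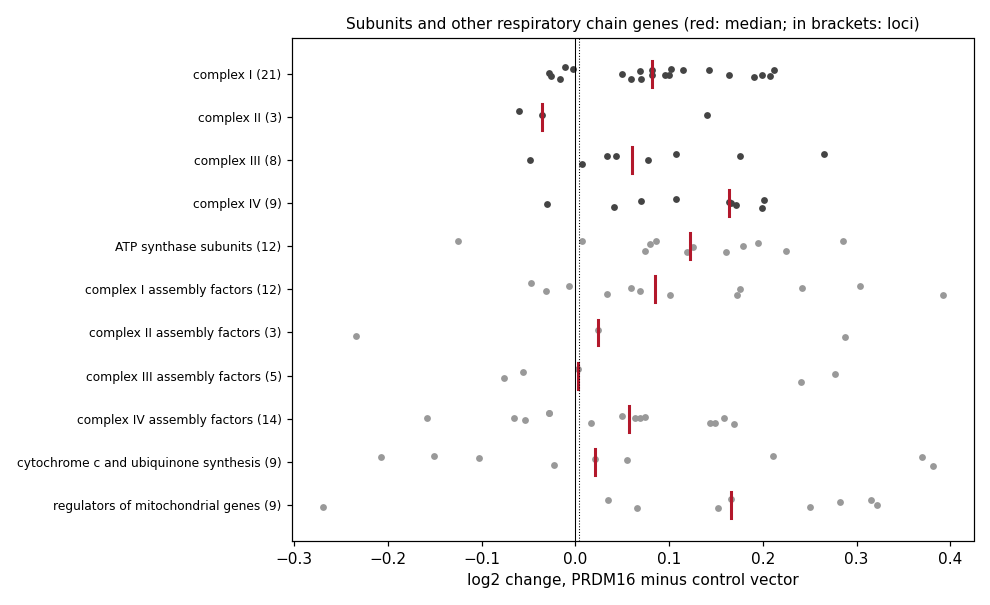
Log2 changes, PRDM16 minus control vector (x axis), of single respiratory chain genes by complex and of assembly factors, ATP synthase subunits and regulators (y axis, number of loci in brackets). Red bars are medians, 0.08 for complex I, -0.04 for complex II, 0.06 for complex III and 0.16 for complex IV, and the dotted line is the median of all tested loci.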

How the data were processed

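The submitters' processing notes name the hg38 build, the aligner TopHat2 2.1.0, the trimmer Trim Galore, Cuffdiff and Cufflinks 2.2.1. The deposited table's header names no unit. Its values were read as FPKM made by the authors, from those tools and because fractions are common and a library's values total 556213 to 574003. The sources used here do not state annotation, scaling or strandedness, so reads of overlapping or antisense genes cannot be told apart. Absolute depth is unknown. Loci with a mean of at least 1 FPKM were tested with limma 3.58.1 in R 4.3.3 on log2(FPKM + 1), a scale that understates the change of low genes, with a variance trend and Benjamini-Hochberg adjustment over all loci. With 2 libraries against 2 an exact two-sided permutation test cannot go below p = 0.333. Genes in loci with several names were kept out of counts unless stated. The genes and lists were chosen with earlier results of these data known. Genes named in the text were the core subunits, those with the smallest p or extreme levels in a complex, and the 2 with the smallest p of each other list. One gene that this rule names is not reported here. Others were named after their values were seen, among them NDUFB11, COX6B1, COX6C, CDH16, PAX8, KRT18, LONP1 and genes set beside their pseudogenes. Coordinates and transcripts are from GENCODE 29 on GRCh38, the assembly hg38 refers to, and promoters from RefSeq. The test was also tried on simulated data, with each locus's own spread between replicates as noise. It called almost none of the smallest changes put in, which were larger than the change of any gene of complexes I to IV here. That spread rests on 2 libraries a group and is itself uncertain, so the share called in the real data may differ. The lack of calls does not show that these genes did not differ. Alternatives covered pseudocounts, filters, scalings, variance models, a replicate block, leaving out each library and loci with several names. Tables were made with Python 3.11.15, numpy 2.4.6, pandas 2.3.3 and biopython 1.88, and plots with matplotlib 3.10.9.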

Additional observations from a re-analysis of the deposited data

How the results depend on the processing

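No respiratory chain gene was called under any of the alternatives run with all 4 libraries. The smallest limma adjusted p among these settings was 0.679, under an alternative scaling. Changes this small are rarely called with 2 libraries a group. The number of called loci over the whole table was 3. It was 6 with no variance trend, 1 with no filter, 5 with a pseudocount of 0.1, 5 with robust variances, 5 with the replicate block, and 16 to 39 with 1 library left out. The replicate numbers do not pair the samples by any label, and the deviations of the libraries numbered 1 had a correlation of -0.058 over loci. The median change of the 41 genes was 0.06 after quantile normalization, 0.08 in the other settings with all 4 libraries, and 0.0325 to 0.15 with 1 left out. With 1 left out it was 0.000577 to 0.21 for complex III. Leaving out a library also makes it easier not to overlap, and 19 to 32 genes then lay higher and 3 to 10 lower without overlap. The 10 were without control vector replicate 2. The shares of all loci given above, 21.1% higher and 20.3% lower, are for 2 libraries against 2 and do not apply to these counts. No such share is given with 1 library left out, so whether these counts exceed it was not tested. Of the 45 genes the naming rule gives, 11 changed sign in some setting, with log2 changes in the comparison of all 4 libraries from -0.23 for SDHAF4 to 0.11 for NDUFAB1. After quantile normalization the log2 changes were -0.0347 for NDUFS1, -0.0273 for NDUFS8 and -0.0115 for UQCRC1. With 1 library left out they were -0.0616 to 0.11 for NDUFS1, -0.0491 to 0.0674 for NDUFS8, -0.0509 to 0.0181 for NDUFV1, -0.0621 to 0.00571 for NDUFS7 and -0.0164 to 0.24 for NDUFAB1. They were -0.14 to 0.0704 for SDHA, -0.49 to 0.0205 for SDHAF4, -0.15 to 0.24 for UQCRFS1, -0.0701 to 0.00933 for COX5B and -0.0416 to 0.18 for NDUFA4. The cause of these changes was not tested.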
